A study of Homo sapiens with 24 samples.

Results

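The integrated stress response begins at 1 phosphorylation site on eIF2, and the 10 genes described here set the machinery around it: the 4 eIF2-alpha kinase genes EIF2AK1, EIF2AK2, EIF2AK3 and EIF2AK4, the 5 eIF2B subunit genes EIF2B1 to EIF2B5, and PPP1R15B, which encodes a subunit of an eIF2-alpha phosphatase. They were chosen by gene symbol, and all 10 were found once in each of 4 comparison tables. These list 33561 (LAN5), 30271 (IMR5), 32760 (SK-N-FI) and 29328 (SK-N-BE(2)) genes. Each table compares cultures of 1 human neuroblastoma cell line given 1 µM GSK-J4 for 72 hours with untreated cultures of that line, at 3 libraries of polyadenylated RNA per group and 24 libraries in all. GSK-J4 is a cell-permeable inhibitor of the histone demethylases KDM6A and KDM6B. The labels call LAN5 and IMR5 MYCN-amplified and sensitive to the compound, SK-N-FI MYCN-wildtype and sensitive, and SK-N-BE(2) MYCN-amplified and resistant. Every contrast of sensitive with resistant cells therefore rests on SK-N-BE(2) alone, and every contrast by MYCN status among sensitive cells on SK-N-FI alone.

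Translation of most mRNAs begins with eIF2, a factor that in its GTP-bound form carries the initiator tRNA to the ribosome, and eIF2B is the exchange factor that reloads eIF2 with GTP after each round. When a kinase phosphorylates the alpha subunit of eIF2, the phosphorylated factor holds eIF2B and blocks it, so that bulk translation falls while the mRNA of the transcription factor ATF4 is translated better. Each kinase answers to its own signals: EIF2AK1 (HRI) to haem shortage and mitochondrial stress, EIF2AK2 (PKR) to double-stranded RNA, EIF2AK3 (PERK) to unfolded protein in the endoplasmic reticulum, and EIF2AK4 (GCN2) to amino acid shortage. The kinases are switched on as proteins, so the level of an mRNA is no measure of activity.

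A gene is called here when its adjusted p-value in the authors' deposited table is under 0.05. The authors' model was taken to have pulled fold changes and their standard errors (SE) toward 0, most strongly in SK-N-BE(2). This was inferred from the deposited SE. Values named prior-removed were computed from the deposited ones by undoing that pull, and are log2 fold changes of GSK-J4 over untreated. The tables do not state their direction. It was read from BBC3, a pro-apoptotic gene that the study is known to report as induced, which is positive for the 3 sensitive lines, and for SK-N-BE(2) from the metal-response genes MT2A and SLC30A1, which are positive in all 4 tables. One table has a short name that only resembles SK-N-FI and was given to that line by likeness and elimination. Levels are given as NPM, the mean normalized count per 1000000 of the table's sum. No value of a single library is given, so the level in each group was estimated from the mean and the prior-removed fold change, with both groups taken as equal in size, and it cannot be shown whether the groups' libraries overlap. Tables were normalized separately, so levels set side by side between lines are a description with no test. In bulk RNA, fewer cells of a kind and less RNA per cell cannot be told apart.

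Library depth is unknown, and the sums of the mean normalized counts lay between 15458940 (LAN5) and 19445359 (IMR5). The 10 markers of sympathetic neuroblasts, the cell kind the labels imply, summed to 1451 to 2714 NPM. TH was not listed under that symbol for IMR5 and SK-N-FI, so the sums there hold 9 markers. Of these markers 9 of 10 fell in LAN5, 5 of 9 fell and 3 rose in IMR5, 7 of 9 fell and 1 rose in SK-N-FI, and 7 of 10 fell in SK-N-BE(2). Over all genes tested, 19.2% (LAN5), 21.6% (IMR5), 14.8% (SK-N-FI) and 0.858% (SK-N-BE(2)) were called lower. The share called higher was 22.6% in IMR5 and 16.8% in SK-N-FI. Immune and endothelial markers summed to 1.02 to 4.30 NPM and Schwann and glial markers to 2.94 to 12.5 NPM, without SOX10. Fibroblast and muscle markers summed to 83.9 NPM in LAN5, 84.1 NPM in IMR5, 174 NPM in SK-N-FI and 2102 NPM in SK-N-BE(2), where LUM (1242 NPM) and DCN (739.6 NPM) made up most of the sum. The part of these marker levels in the results was not tested.

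The kinase genes called in both MYCN-amplified sensitive lines, which leaves out EIF2AK1, moved in opposite directions in them. All 4 kinase genes fell in LAN5, where 19.2% of genes tested were called lower. In IMR5, where 22.6% of genes were called higher, 3 of the 4 rose and none fell. In SK-N-FI 1 rose and 1 fell, beside 16.8% of genes called higher and 14.8% lower. None was called in SK-N-BE(2), where 2.48% of genes were called in either direction (1.62% higher, 0.858% lower), and none of the 4 had an unadjusted p under 0.05 in the DESeq2 Wald test there. Strong genes are called more often: with means of 100 or more, 38.9% of genes were called lower and 28.2% higher in LAN5, 34.0% higher and 35.7% lower in IMR5, 25.0% higher and 24.1% lower in SK-N-FI, and 1.86% higher and 1.02% lower in SK-N-BE(2). The members are such genes, with a lowest mean of 329.5 normalized counts (EIF2B3 in LAN5).

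EIF2AK3 (ENSG00000172071; chromosome 2, 88556741 to 88627576, minus strand, GRCh38), the kinase of the endoplasmic reticulum, had the widest contrast between lines of the 4. In LAN5 its estimated level was 27.6 NPM with GSK-J4 and 36.3 NPM in untreated cells, a prior-removed log2 fold change of -0.40 ± 0.0985 (SE). In IMR5 it was 32.7 NPM with GSK-J4 and 23.1 NPM untreated, a change of 0.50 ± 0.101. In SK-N-FI it was 43.5 NPM with GSK-J4 and 33.1 NPM untreated, a change of 0.40 ± 0.106. EIF2AK3 thus fell in LAN5 and rose in both other sensitive lines, at adjusted p = 0.000222, 4.07e-06 and 0.00110 in the authors' deposited tables for LAN5, IMR5 and SK-N-FI. In SK-N-BE(2) the estimates were 30.7 NPM with GSK-J4 and 28.4 NPM untreated, a change of 0.11 ± 0.0896 that was not called.

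EIF2AK4, the amino acid sensor (chromosome 15, 39934146 to 40035591, plus strand), had the same pair of directions. It fell in LAN5, with 87.1 NPM under GSK-J4 and 105 NPM in untreated cells (prior-removed -0.27 ± 0.0756). It rose in IMR5, with 57.3 NPM under GSK-J4 and 46.7 NPM untreated (0.29 ± 0.0835). It was called in neither other line: SK-N-FI had 57.2 NPM under GSK-J4 and 64.8 NPM untreated (-0.18 ± 0.118), and SK-N-BE(2) had 83.6 NPM under GSK-J4 and 80.5 NPM untreated (0.05 ± 0.0631).

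EIF2AK1, the haem-regulated kinase (chromosome 7, 6022244 to 6059230, minus strand), was called in 1 of the 4 tables. It fell in LAN5, with 160.2 NPM under GSK-J4 and 212 NPM in untreated cells (prior-removed -0.40 ± 0.0635, adjusted p = 1.62e-09 in the authors' deposited table). Its prior-removed changes elsewhere were 0.03 ± 0.0647 for IMR5, 0.13 ± 0.0891 for SK-N-FI and, in the resistant SK-N-BE(2), 0.06 ± 0.0487.

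EIF2AK2, the kinase that binds double-stranded RNA, is also an interferon-stimulated gene (chromosome 2, 37099210 to 37157065, minus strand). Its promoter is shown because 2 of the 3 motifs searched fall in it. The run goes from 250 bases before the RefSeq start through the first 4 transcribed bases (chr2:37156977-37157230, GRCh38.p14, minus strand), with the E-box CACGTG and the interferon response motif in capitals.
EIF2AK2: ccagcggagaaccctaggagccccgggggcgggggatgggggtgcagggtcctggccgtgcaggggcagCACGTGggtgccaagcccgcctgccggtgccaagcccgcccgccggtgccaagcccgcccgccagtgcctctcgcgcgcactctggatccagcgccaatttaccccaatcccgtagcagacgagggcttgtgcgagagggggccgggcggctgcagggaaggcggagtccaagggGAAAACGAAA
The E-box starts 181 bases and the interferon motif 6 bases before the RefSeq start. On both strands of 35116 RefSeq promoters, each from 250 bases before to 50 after a start, 7.26% hold the E-box and 3.57% the interferon motif. Of the 9 members matched to a promoter there, EIF2B3 and EIF2AK2 hold the E-box and EIF2AK2 the interferon motif. The unmatched member is EIF2AK1.

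EIF2AK2 changed in all 3 sensitive lines, but not in 1 direction. It fell in LAN5, with 126 NPM under GSK-J4 and 144 NPM in untreated cells (prior-removed -0.20 ± 0.0767, adjusted p = 0.0222 in the authors' deposited table). That call was lost when fold changes were centred on the median of genes with means of 100 or more (-0.12, adjusted p = 0.239). It rose in IMR5, with 87.1 NPM under GSK-J4 and 71.1 NPM untreated (0.29 ± 0.0703). It fell in SK-N-FI, with 132 NPM under GSK-J4 and 161 NPM untreated (-0.29 ± 0.119), close to the threshold at an adjusted p of 0.0463 in the authors' deposited table. SK-N-BE(2) had 221 NPM under GSK-J4 and 214 NPM untreated (0.05 ± 0.0510), not called.

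**Figure D1:**
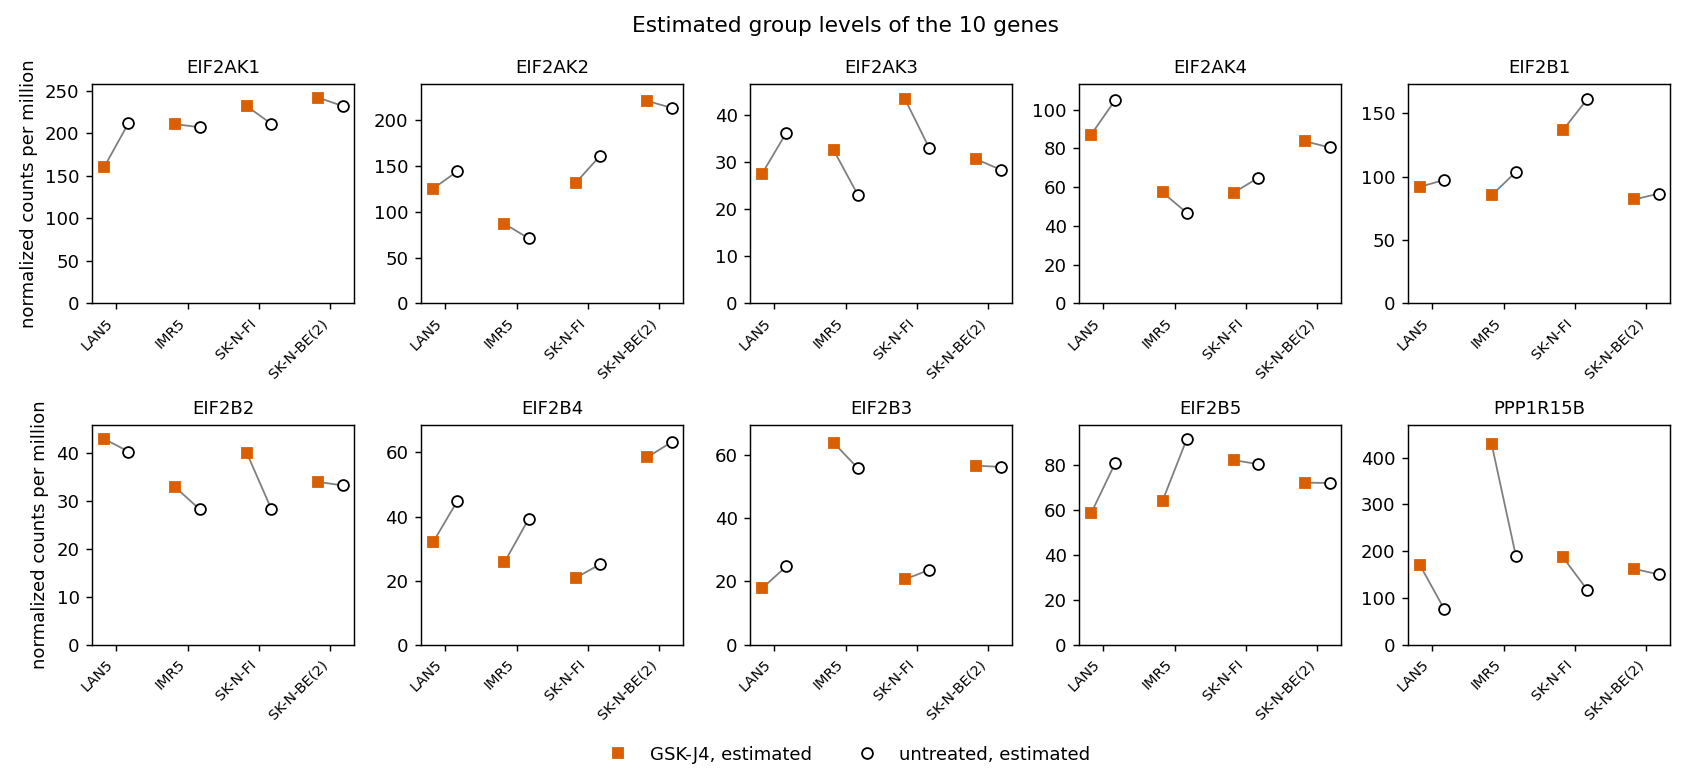
Estimated normalized counts per 1000000 of the table's sum (vertical axes, each from 0) for the 10 genes in the 4 lines, with squares for GSK-J4 and open circles for untreated cells; no error can be drawn, since no single library is given. PPP1R15B shows the widest gap (429.9 under GSK-J4 and 191 untreated in IMR5), and the pairs lie close together in SK-N-BE(2).

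The eIF2B genes did not share 1 direction. EIF2B1, EIF2B2 and EIF2B4 encode the alpha, beta and delta subunits of the regulatory core, which senses phosphorylated eIF2, and EIF2B3 and EIF2B5 encode the gamma and epsilon subunits of the catalytic part. Of the 5 genes 3 fell and none rose in LAN5, 2 rose and 3 fell in IMR5, where 21.6% of genes were called lower, and 1 rose and none fell in SK-N-FI. Of genes with means of 100 or more, 38.9% were called lower and 28.2% higher in LAN5. The shares were 34.0% higher and 35.7% lower in IMR5, and 25.0% higher and 24.1% lower in SK-N-FI. None was called in SK-N-BE(2), and none had an unadjusted p under 0.05 in the DESeq2 Wald test there. In each line EIF2B4 had the lowest and EIF2B2 the highest prior-removed change of the 5. They lay 0.58 apart on the log2 scale in LAN5, 0.83 apart in IMR5, 0.76 apart in SK-N-FI and 0.14 apart in SK-N-BE(2). This order was noticed in the data and was not tested. Some neighbours in it lay closer than their SE, such as EIF2B4 (-0.49 ± 0.0981) and EIF2B3 (-0.47 ± 0.116) in LAN5.

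EIF2B5, the catalytic epsilon subunit (chromosome 3, 184135038 to 184146112, plus strand), fell in both MYCN-amplified sensitive lines. In LAN5 its estimated level was 58.4 NPM with GSK-J4 and 80.8 NPM in untreated cells, a prior-removed log2 fold change of -0.47 ± 0.0775. In IMR5 it was 63.9 NPM with GSK-J4 and 91.3 NPM untreated, a change of -0.52 ± 0.0703. The adjusted p-values were 9.58e-09 and 2.11e-12 in the authors' deposited tables for LAN5 and IMR5. Neither other line was called: SK-N-FI had 81.9 NPM under GSK-J4 and 80.2 NPM untreated (0.03 ± 0.0982), and SK-N-BE(2) had 72.0 NPM under GSK-J4 and 71.8 NPM untreated (0.00279 ± 0.0630).

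EIF2B3, the gamma subunit that pairs with it (chromosome 1, 44850522 to 44986722, minus strand), fell in LAN5 and rose in IMR5. LAN5 had 17.8 NPM with GSK-J4 and 24.8 NPM untreated (-0.47 ± 0.116), and IMR5 had 63.9 NPM with GSK-J4 and 55.8 NPM untreated (0.19 ± 0.0815, adjusted p = 0.0402 in the authors' deposited table). It was not called for SK-N-FI (-0.19 ± 0.144) or SK-N-BE(2) (0.00965 ± 0.0704). The prior-removed changes of EIF2B3 and EIF2B5 lay 0.00543 apart in LAN5, where both fell, and 0.71 apart in IMR5, where their calls had opposite signs. The calls of EIF2B3 and EIF2B2 in IMR5 were lost at an adjusted p under 0.01 and with adjustment over all listed genes.

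EIF2B4, the delta subunit (chromosome 2, 27364352 to 27370486, minus strand), fell in LAN5, with 32.0 NPM under GSK-J4 and 44.9 NPM in untreated cells (prior-removed -0.49 ± 0.0981). It also fell in IMR5, with 25.7 NPM under GSK-J4 and 39.3 NPM untreated (-0.61 ± 0.0931). The changes of -0.27 ± 0.141 for SK-N-FI and of -0.11 ± 0.0845 in SK-N-BE(2) were not called. EIF2B1, the alpha subunit (chromosome 12, 123620406 to 123633766, minus strand), fell in IMR5, with 85.1 NPM under GSK-J4 and 104 NPM untreated (-0.28 ± 0.0707). It was not called for LAN5 (-0.08 ± 0.0794), SK-N-FI (-0.24 ± 0.0998) or SK-N-BE(2) (-0.08 ± 0.0637). Its adjusted p for SK-N-FI, 0.0538 in the authors' deposited table, lay just outside the threshold.

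EIF2B2, the beta subunit (chromosome 14, 75002911 to 75012366, plus strand), was the eIF2B gene that rose in SK-N-FI. Its estimated level there was 40.01 NPM with GSK-J4 and 28.4 NPM in untreated cells (prior-removed 0.49 ± 0.153, adjusted p = 0.00584 in the authors' deposited table). It also rose in IMR5, with 32.9 NPM under GSK-J4 and 28.3 NPM untreated (0.22 ± 0.0922, adjusted p = 0.0426 in the authors' deposited table). It was not called for LAN5 (0.09 ± 0.102) or SK-N-BE(2) (0.03 ± 0.0907). The library kit keeps strand, but whether the counting used it is not given in the sources used here, and 8 of the 10 members share exonic bases with a gene on the opposite strand in GENCODE 29. The longest stretches are 1098 bases of EIF2B2 with AL049780.3, 781 of EIF2AK3 with AC104134.1, 536 of EIF2B1 with DDX55 and 532 of EIF2AK1 with AIMP2, and without strand the reads there cannot be told apart. EIF2AK4 and PPP1R15B share none.

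PPP1R15B (ENSG00000158615; chromosome 1, 204403387 to 204411791, minus strand, GRCh38) had the largest absolute change of the 10 genes in each sensitive line and was the single member called in 1 direction in all 3. Its product, CReP, brings protein phosphatase 1 to eIF2-alpha in unstressed cells and so keeps phosphorylation low, while its relative PPP1R15A (GADD34) does so once stress has induced it. PPP1R15B is also the 1 member whose promoter holds the ATF4-C/EBP composite motif TGATGNAA, which 3.62% of the 35116 promoters hold on either strand. The 250 bases before its RefSeq start are shown for that match (chr1:204411818-204412067, GRCh38.p14, minus strand), which is in capitals and starts 227 bases before the start.
PPP1R15B: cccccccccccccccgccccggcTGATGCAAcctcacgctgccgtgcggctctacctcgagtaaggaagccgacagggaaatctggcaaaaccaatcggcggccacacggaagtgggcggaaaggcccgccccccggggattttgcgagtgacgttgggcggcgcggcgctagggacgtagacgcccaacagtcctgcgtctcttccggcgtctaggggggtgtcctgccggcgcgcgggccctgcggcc
A match describes the letters and does not show that a factor binds there.

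In LAN5 the estimated level of PPP1R15B was 169.5 NPM with GSK-J4 and 75.4 NPM in untreated cells, a prior-removed log2 fold change of 1.17 ± 0.0800. In IMR5 it was 429.9 NPM with GSK-J4 and 191 NPM untreated, a change of 1.17 ± 0.181. In SK-N-FI it was 187 NPM with GSK-J4 and 117 NPM untreated, a change of 0.67 ± 0.0923. PPP1R15B thus rose 2.25-fold in LAN5, 2.26-fold in IMR5 and 1.59-fold in SK-N-FI. The adjusted p-values were 1.08e-46, 6.54e-10 and 8.44e-12 in the authors' deposited tables for LAN5, IMR5 and SK-N-FI. SK-N-BE(2) had 162 NPM with GSK-J4 and 150.4 NPM untreated (0.11 ± 0.0518). This was the smallest unadjusted p of the 10 genes there (0.0375), and the adjusted p was 0.423 in the authors' deposited table. The SE in IMR5 stands out: 99.5% of the genes nearest in mean had a smaller deposited SE, with a median of 0.0650 and 0.175 for PPP1R15B in the authors' deposited table. That share was 84.1% for LAN5, 22.4% for SK-N-FI, with 53.2% in SK-N-BE(2).

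**Figure D2:**
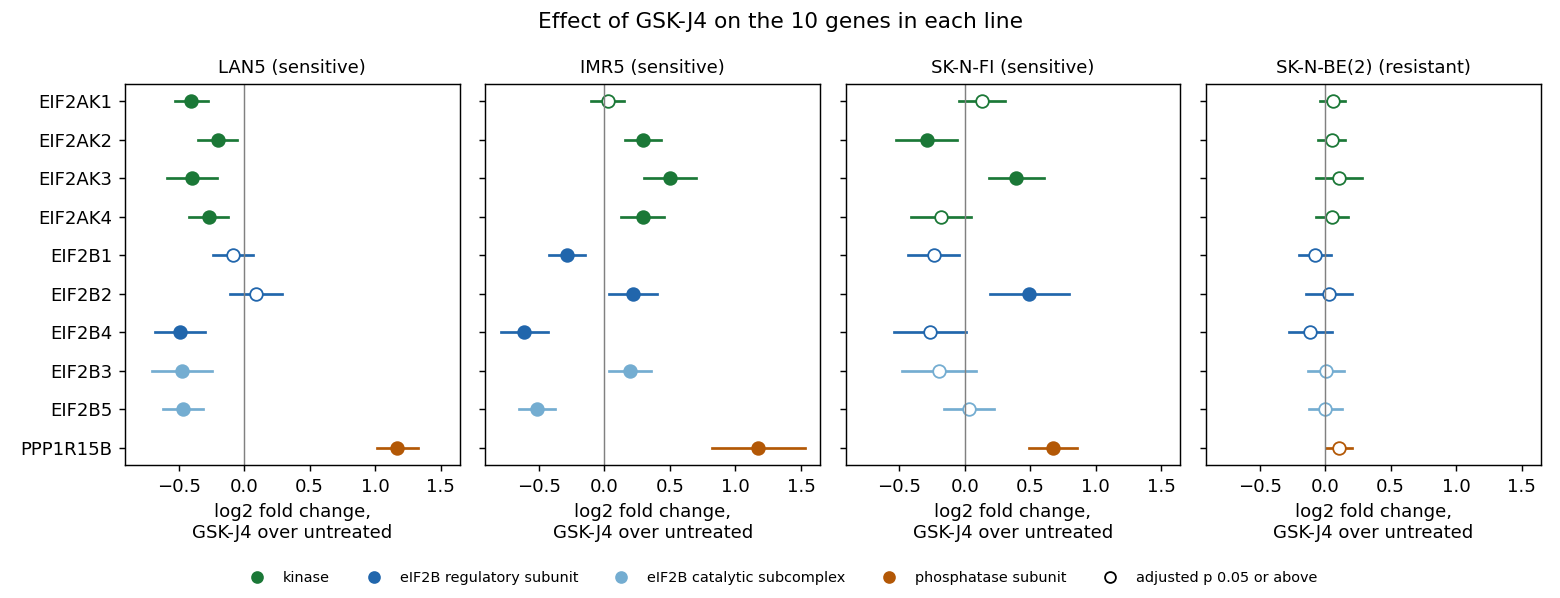
Prior-removed log2 fold change, GSK-J4 over untreated (horizontal axis), of the 10 genes (rows) in the 4 lines (panels), with bars for 95% intervals and filled points for an adjusted p under 0.05. PPP1R15B lies right of 0 in the 3 sensitive lines, the kinases lie left of 0 in LAN5, and every point is open in SK-N-BE(2).

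Over all 10 genes, 1 rose and 7 fell in LAN5, beside 41.7% of all genes tested (22.5% higher) and 67.0% of those with means of 100 or more. In IMR5 6 rose and 3 fell, beside 44.1% of all genes tested and 69.6% of the stronger ones. In SK-N-FI 3 rose and 1 fell, beside 31.6% and 49.1%. None of the 10 was called in SK-N-BE(2), where 2.87% of the stronger genes were called and 1 member had an unadjusted p under 0.05 in the DESeq2 Wald test. Being called was thus no more common among the members than among genes of like strength in SK-N-FI, and it was not rare in any sensitive line. The members' median deposited log2 change was -0.33 (LAN5), 0.20 (IMR5), -0.07 (SK-N-FI) and 0.03 (SK-N-BE(2)) in the authors' deposited tables. Over all genes tested the medians were 0.09 (LAN5), 0.0158 (IMR5), 0.0103 (SK-N-FI) and -0.000174 (SK-N-BE(2)) in the authors' deposited tables. Over genes with means of 100 or more, the median prior-removed change was -0.09 (LAN5), -0.0159 (IMR5), 0.00165 (SK-N-FI) and 0.00176 (SK-N-BE(2)).

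The effects were compared between lines with a two-sided Wald test on the prior-removed changes, adjusted over the 8969 genes with means of 100 or more in every table. Its p-values measure the spread between libraries and not that between cell lines of a kind. For the mean of the 3 sensitive lines minus SK-N-BE(2), 1 member was called higher and 3 lower, beside 26.4% and 32.7% of the 8969 genes (59.1% in all). The effect on PPP1R15B was higher by 0.90 ± 0.0894 (adjusted p = 2.37e-22). The differences for EIF2B5 (-0.32 ± 0.0791, adjusted p = 0.000158) and EIF2B4 (-0.34 ± 0.107, adjusted p = 0.00308) were negative. That for EIF2B5 rests on LAN5 (-0.47) and IMR5 (-0.52). Its change in the sensitive SK-N-FI (0.03 ± 0.0982) lay close to that in SK-N-BE(2) (0.00279 ± 0.0630). EIF2B4 missed the threshold without IMR5 (-0.26, adjusted p = 0.0517). It also missed it with a prior width of 1.5 times the largest SE (-0.27, adjusted p = 0.123). At that width the equations have no real solution for EIF2B4 in SK-N-BE(2), where its SE was 0.0671 in the authors' deposited table. Its value was therefore set by a limit in the code, and that setting cannot test the EIF2B4 call. EIF2AK1 was close to the threshold (-0.14 ± 0.0645, adjusted p = 0.0489) and turned positive without LAN5 (0.0195, adjusted p = 0.838), and 4 of 9 alternatives kept its call. The other 6 genes were not called. For EIF2AK3 the 95% interval was -0.15 to 0.27, over sensitive lines with opposite changes, and without LAN5 it was called higher (0.34, adjusted p = 0.00799).

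LAN5 minus IMR5 set the MYCN-amplified sensitive lines against each other, and 5 members were called, all lower, beside 33.6% of the 8969 genes called lower and 27.3% higher (61.0% in all). All 4 kinases were among them, with differences of -0.89 ± 0.141 for EIF2AK3 (adjusted p = 1.55e-09), -0.56 ± 0.113 for EIF2AK4 (adjusted p = 2.21e-06), -0.49 ± 0.104 for EIF2AK2 (adjusted p = 7.3e-06) and -0.43 ± 0.0906 for EIF2AK1 (adjusted p = 8.7e-06). The fifth was EIF2B3, at -0.67 ± 0.141 (adjusted p = 8.36e-06). For PPP1R15B the 95% interval of the difference was -0.39 to 0.38, for EIF2B4 -0.14 to 0.39 and for EIF2B5 -0.16 to 0.25.

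The mean of LAN5 and IMR5 minus SK-N-FI set MYCN-amplified against MYCN-wildtype sensitive cells. It called 2 members higher and 3 lower, beside 18.9% and 28.4% of the 8969 genes (47.3% in all). EIF2B5 was lower (-0.52 ± 0.111, adjusted p = 1.63e-05) and PPP1R15B higher (0.50 ± 0.135, adjusted p = 0.000905). Both were called with either amplified line alone: EIF2B5 at -0.50 for LAN5 and -0.55 for IMR5, and PPP1R15B at 0.50 for LAN5 and 0.50 for IMR5. The other 3 calls were made with 1 of the amplified lines alone and not with the other. EIF2AK3 was lower (-0.34 ± 0.127, adjusted p = 0.0173), with -0.79 for LAN5 alone and 0.10 for IMR5 alone (adjusted p = 0.579). EIF2AK1 was lower (-0.32 ± 0.100, adjusted p = 0.00395), with -0.54 for LAN5 alone and -0.11 for IMR5 alone (adjusted p = 0.422). EIF2AK2 was higher (0.34 ± 0.130, adjusted p = 0.0234), with 0.58 for IMR5 alone and 0.09 for LAN5 alone (adjusted p = 0.621). Centring on the median ended the EIF2AK3 call (-0.26, adjusted p = 0.0756).

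**Figure D3:**
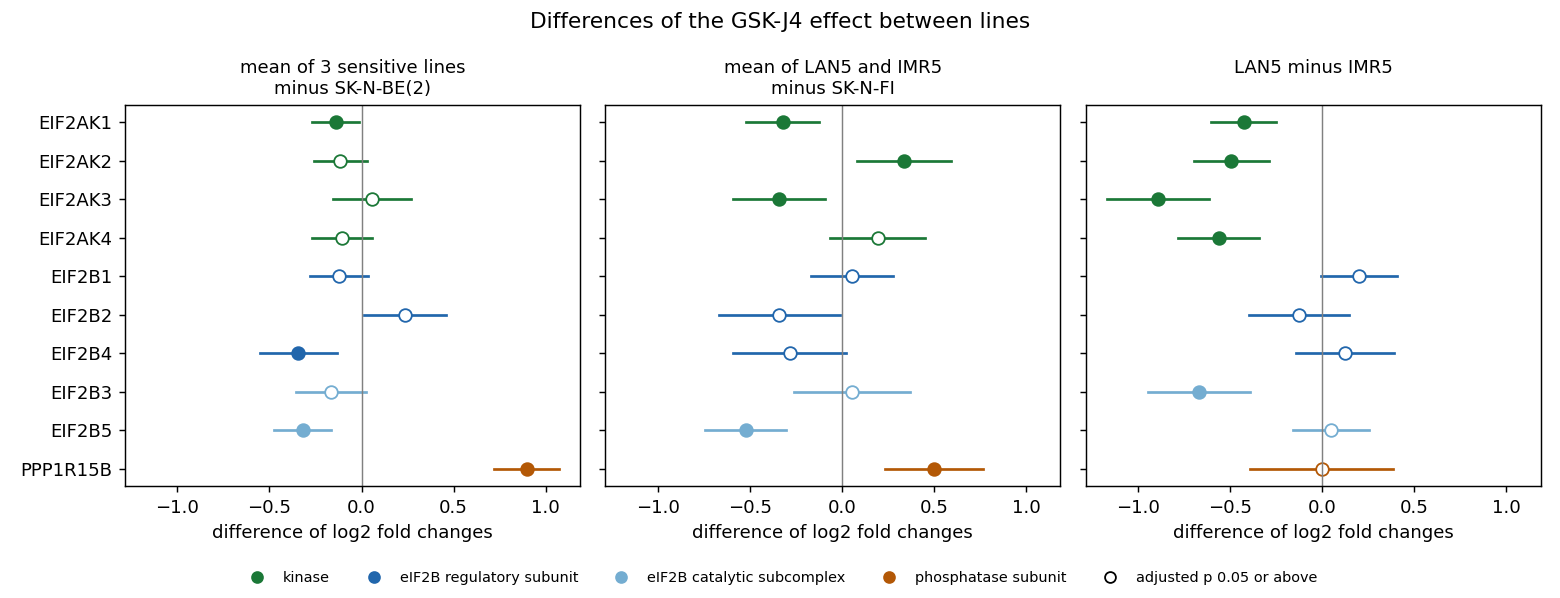
Difference of prior-removed log2 fold changes (horizontal axis) for the 10 genes (rows) in 3 contrasts of lines (panels), with bars for 95% intervals and filled points for an adjusted p under 0.05. The 4 kinases and EIF2B3 lie left of 0 for LAN5 minus IMR5, and EIF2B5, PPP1R15B and EIF2AK1 are called in both other panels.

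Untreated levels differed between lines more for some members than for others. The estimated untreated level of EIF2AK1 lay between 207 and 232 NPM over the 4 lines. EIF2AK2 had 71.1 NPM in untreated IMR5, 144 NPM in LAN5, 161 NPM in SK-N-FI and 214 NPM in SK-N-BE(2). EIF2AK2 stayed lowest in IMR5 with GSK-J4 too, although it rose there and fell in LAN5 and SK-N-FI. EIF2B3 fell into pairs of lines, with 55.8 NPM in untreated IMR5 and 56.2 NPM in SK-N-BE(2), and 24.8 NPM in LAN5 and 23.7 NPM in SK-N-FI. EIF2B4 was highest in untreated SK-N-BE(2) (63.2 NPM) and lowest in SK-N-FI (25.1 NPM). EIF2B1 was highest in SK-N-FI (161 NPM untreated, with 86.5 to 104 NPM in the others). Over both groups, the highest and lowest lines differed 2.81 times for EIF2B3, 2.75 times for EIF2AK2, 2.64 times for EIF2B4 and 2.53 times for PPP1R15B, and 1.16 to 1.85 times for the other 6 genes. Without a spread between libraries it cannot be said which neighbours in these orders differ.

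Other genes of the pathway were counted from lists. Of all genes tested, 41.7% (LAN5), 44.1% (IMR5), 31.6% (SK-N-FI) and 2.48% (SK-N-BE(2)) were called in either direction. Of genes with means of 100 or more, 67.0% (LAN5), 69.6% (IMR5), 49.1% (SK-N-FI) and 2.87% (SK-N-BE(2)) were called. These shares stand beside the counts of every list below, and no list was tested as a set. Deposited changes given below were taken as pulled toward 0 to different degrees between lines, so their sizes are not compared between lines. In the ATF4 branch, downstream of eIF2-alpha phosphorylation, all 14 genes rose in each sensitive line and none was called in SK-N-BE(2); the list was drawn up with such results known and is no independent evidence of its direction. TRIB3, a pseudokinase gene, had 4.30, 5.003 and 2.33 in the authors' deposited tables for LAN5, IMR5 and SK-N-FI. NUPR1, a stress-induced regulator with a mean of 0.481 NPM in SK-N-FI, had 6.78, 3.77 and 2.26 in the authors' deposited tables for LAN5, IMR5 and SK-N-FI. The median deposited log2 change of the list was 2.54 (LAN5), 2.82 (IMR5), 1.49 (SK-N-FI) and -0.06 (SK-N-BE(2)) in the authors' deposited tables. Among the kinase and eIF2B genes the largest absolute change was that of EIF2B4 in IMR5, at -0.60 in the authors' deposited table and -0.61 prior-removed.

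Among the other subunits of eIF2-alpha phosphatases, 1 of 4 genes rose and 2 fell in LAN5, 2 rose and 2 fell in IMR5, 1 rose in SK-N-FI and none was called in SK-N-BE(2). PPP1R15A, the stress-inducible relative of PPP1R15B, rose in all 3 sensitive lines, with 3.35 ± 0.0979, 2.66 ± 0.120 and 3.28 ± 0.107 (log2, SE) in the authors' deposited tables for LAN5, IMR5 and SK-N-FI. In SK-N-BE(2) it had -0.13 in the authors' deposited table, not called. The catalytic subunit genes did not share 1 direction in the authors' deposited tables. PPP1CA fell in LAN5 (-0.24) and IMR5 (-0.91), and had -0.15 for SK-N-FI, not called. PPP1CC fell in LAN5 (-0.79) and rose in IMR5 (0.26), and had 0.0176 for SK-N-FI, not called. PPP1CB fell in IMR5 (-0.31) and was not called for LAN5 (0.0181) or SK-N-FI (0.22).

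The 11 genes of eIF2 and its partners were split: 2 rose and 1 fell in LAN5, 4 rose and 6 fell in IMR5, 3 rose and 1 fell in SK-N-FI, and none was called in SK-N-BE(2). EIF2S2, the beta subunit of eIF2, rose in each sensitive line, with 0.37, 0.51 and 0.46 in the authors' deposited tables for LAN5, IMR5 and SK-N-FI. EIF2S1, the subunit that the kinases phosphorylate, fell in IMR5 (-0.30) in the authors' deposited table, and the authors' deposited tables have -0.15 for LAN5 and -0.07 for SK-N-FI, neither called. EIF2A, a separate factor that can deliver initiator tRNA, rose in IMR5 (0.54) and SK-N-FI (0.93) and had 0.15 in LAN5, not called, in the authors' deposited tables.

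Of 10 activators and inhibitors of the kinases, 2 rose and 2 fell in LAN5, 2 of 9 tested rose and 4 fell in IMR5, 2 rose and 3 fell in SK-N-FI, and none was called in SK-N-BE(2). ADAR, an RNA-editing enzyme that limits the double-stranded RNA that EIF2AK2 binds, fell in the sensitive lines, with -0.16, -0.43 and -0.45 in the authors' deposited tables for LAN5, IMR5 and SK-N-FI. NCK1, an adaptor protein gene, rose in IMR5 (0.86) and SK-N-FI (0.59) and had 0.17 in LAN5, not called, in the authors' deposited tables.

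The interferon-stimulated genes were set beside EIF2AK2. Of those tested, 3 of 12 rose and 2 fell in LAN5, 5 of 10 rose and 1 fell in IMR5, none of 13 rose and 4 fell in SK-N-FI, and none of 10 was called in SK-N-BE(2). IFIT1 fell in the sensitive lines, with -0.68, -0.96 and -1.26 in the authors' deposited tables for LAN5, IMR5 and SK-N-FI. ISG15 rose in IMR5 (1.28 in the authors' deposited table) at a mean of 0.134 NPM. The subunits of eIF3, another initiation factor, had 1 of 13 genes higher and 8 lower in LAN5, 5 higher and 4 lower in IMR5, 7 higher and 1 lower in SK-N-FI, and 1 higher in SK-N-BE(2). EIF3D rose in the sensitive lines, with 0.52, 0.47 and 0.52 in the authors' deposited tables for LAN5, IMR5 and SK-N-FI. EIF3H rose in IMR5 (0.50) and SK-N-FI (0.79) and had -0.15 in LAN5, not called, in the authors' deposited tables.

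**Figure D4:**
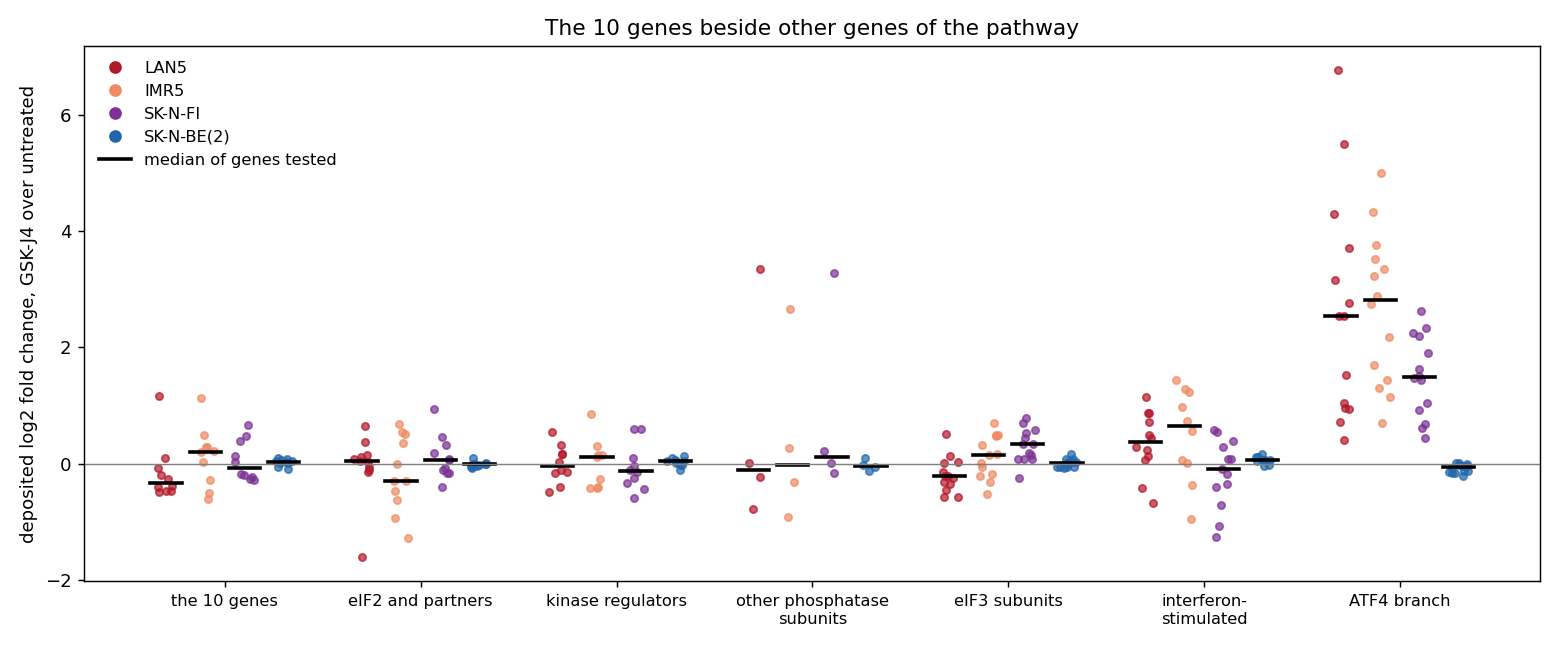
Deposited log2 fold change, GSK-J4 over untreated (vertical axis), of each gene tested in 7 lists (groups along the horizontal axis) and 4 lines (colours), with black bars for medians. The ATF4 branch lies above 0 in the sensitive lines (medians 2.54, 2.82 and 1.49 in the authors' deposited tables), and the medians of the 10 members lie between -0.33 and 0.20.

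The genes whose prior-removed changes over the 4 lines lay closest to those of EIF2AK3, by Euclidean distance among the 8969 genes, were MTX2 (distance 0.0934), CACNB3 (0.127) and ZBTB44 (0.136). MTX2 had -0.42 (LAN5), 0.45 (IMR5), 0.35 (SK-N-FI) and 0.05 (SK-N-BE(2)). These distances are near the SE of a single value, so which genes come first is uncertain.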

How the data were processed

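RNA was measured in 24 libraries, 3 in each of 8 groups. The submitters' processing notes name FastQC, STAR, DESeq2 and hg38, without versions; annotation, counting tool, design and contrast direction were not stated there. It is not known whether replicates were separate cultures: if not, the p-values reflect technical spread.

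The signal column is, per the file headers, a mean of normalized counts made by the authors. Log2 fold changes and their SE were used as deposited, as were the Wald score, the p-value and the adjusted p-value; calls were not tested again, and the 1 fit over libraries in the design was replaced by Wald tests on the tables. In the SK-N-BE(2) table the score differed from fold change over SE by more than 0.0001 for 19488 genes (median 0.000382), and in the other 3 tables for none, so prior-removed values of that line may be less exact.

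The prior was removed by solving the equations for a shrunken fold change and its SE. The prior width was assumed to be 2 times the table's largest SE (LAN5 0.539, IMR5 0.490, SK-N-FI 0.428, SK-N-BE(2) 0.0828). Intervals are 95%, as 1.96 SE. Differences between lines used Benjamini-Hochberg adjustment, and the code for this test was checked on simulated data. Python 3.11.15, numpy 2.4.6, pandas 2.3.3 and scipy 1.17.1 were used, with GENCODE 29 for positions. Named genes are the members, the 2 genes of each other list with the largest absolute median deposited change over the sensitive lines (for marker lists, counts and sums only), genes needed for EIF2AK2 or the phosphatase, and the 3 nearest EIF2AK3. EIF2S1, PPP1CB, PPP1CC, LUM, DCN, TH and SOX10 were named after their values were seen. Members and lists were chosen with earlier results of these data known.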

Additional observations from a re-analysis of the deposited data

Results flagged for a closer look

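By the Wald test of the difference itself, the effect of GSK-J4 differed between lines in 14 of the comparisons made, with 10 genes in each of 3 contrasts. For the sensitive lines minus SK-N-BE(2) the differences in log2 fold change were 0.90 for PPP1R15B, -0.34 for EIF2B4, -0.32 for EIF2B5 and -0.14 for EIF2AK1. For LAN5 and IMR5 minus SK-N-FI they were -0.52 for EIF2B5, 0.50 for PPP1R15B, -0.34 for EIF2AK3, 0.34 for EIF2AK2 and -0.32 for EIF2AK1. For LAN5 minus IMR5 they were -0.89 for EIF2AK3, -0.67 for EIF2B3, -0.56 for EIF2AK4, -0.49 for EIF2AK2 and -0.43 for EIF2AK1. Of the 8969 genes tested, 59.1%, 47.3% and 61.0% were called in these contrasts in the same order, so being called does not set the members apart.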

How the results depend on the processing

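No paired analysis was possible because the tables hold no values of single libraries, and leaving out single replicates could not be run for that reason. Requiring an absolute prior-removed change of 0.5 as well left 0 members lower in LAN5, 1 higher in IMR5, and 1 higher and 0 lower in SK-N-FI. The lower call in SK-N-FI, EIF2AK2, became 0 at an adjusted p under 0.01, 0 with adjustment over all listed genes, and 2 members with adjustment over genes with means of 100 or more. The first 2 of these settings also left 4 members higher in IMR5, beside 6 as reported, without EIF2B2 and EIF2B3, and an adjusted p under 0.01 left 6 lower in LAN5, without EIF2AK2. Centred on the median, EIF2AK2 in LAN5 had -0.12 and lost its call. For sensitive minus resistant lines, members higher numbered 2 with deposited folds, 2 with a prior width of 3 times and 2 with centring (EIF2B2 added each time), and 3 without LAN5, beside 1 as reported. Members lower numbered 1 with a prior width of 1.5 times and 5 without IMR5, beside 3 as reported. At 1.5 times the equations have no real solution for EIF2B4, EIF2AK3 and EIF2B2 in SK-N-BE(2), so the loss of EIF2B4 at that width cannot be read. The EIF2AK1 difference reversed to 0.0195 without LAN5, and its call was also lost with a minimum mean of 50 or 10, with centring (-0.10, adjusted p = 0.186) and with a prior width of 1.5 times (adjusted p = 0.0589), so that 4 of 9 alternatives kept it. For MYCN-amplified minus MYCN-wildtype lines, members higher numbered 1 with LAN5 alone and 4 with IMR5 alone, and members lower 1 with IMR5 alone, where the EIF2AK3 difference reversed to 0.10. Centring added 1 member higher for LAN5 minus IMR5, EIF2B1 at 0.25. The cause of these changes was not tested. For sensitive minus resistant and MYCN-amplified minus MYCN-wildtype lines, the difference calls on PPP1R15B and EIF2B5 kept their direction and side of the threshold in the alternatives run. So did the difference calls on the 4 kinases for LAN5 minus IMR5. Within LAN5, the call on EIF2B5 (-0.47) was among those lost with the cut at 0.5. Library depth is unknown.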

Other observations

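Some genes around the 10 stood out in 1 line and were picked once their values were known. IMPACT, which inhibits the amino acid sensing kinase EIF2AK4, had a mean of 0.0457 NPM in IMR5, with 48.1 NPM in LAN5, 38.7 NPM in SK-N-FI and 35.2 NPM in SK-N-BE(2). Among interferon-stimulated genes, IFI44L had 63.6 NPM in IMR5, 0.769 NPM in SK-N-FI and 0.0484 NPM in SK-N-BE(2), and it was not listed for LAN5. OAS3 had 0.0313 NPM in IMR5, 15.9 NPM in LAN5, 89.95 NPM in SK-N-FI and 50.6 NPM in SK-N-BE(2). EIF5, which triggers GTP hydrolysis on eIF2, fell in IMR5 (-1.29) in the authors' deposited table, and the authors' deposited tables have 0.0201 for LAN5 and 0.19 for SK-N-FI, neither called. BZW1, a protein that mimics part of EIF5, fell in IMR5 (-0.93) in the authors' deposited table. In the authors' deposited tables its relative BZW2 fell in LAN5 (-1.61) and IMR5 (-0.31) and rose in SK-N-FI (0.33). Differences between lines in these genes were not tested.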
